A study of Caenorhabditis elegans with 33 samples.

Results

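The histone genes of *Caenorhabditis elegans* were read across 11 bacterial diets. They were taken as every deposited gene symbol formed by his or hil, a hyphen and a number, which gave 30 of the 18811 symbols. 9 encode linker histones (his-24 and hil-1 to hil-8), 6 H2A, 4 H2B, 3 H3, 3 the variant H3.3 and 4 H4. The type of the last, his-73, was left unknown. A RefSeq gene table of the genome build WBcel235 holds 80 symbols of the same form, and the other 50 are not analysed here. Whole bodies of synchronized adult worms of the wild-type strain N2 supplied total RNA, sequenced on a DNBSEQ instrument in 33 libraries, 3 per diet. Animals of 1 group ate BW25113, a strain of *Escherichia coli* used in the laboratory. The remaining 10 groups ate mutant bacteria labelled crl, iaaA, purH, torY, yccU, ycdC, ycgJ, yghZ, yjgU or ypdF. All animals carried the same genotype, and no other agent is named. The group called yjgU here from its sample titles has yigU in its treatment labels, so which gene was mutated is uncertain. The sources used here do not give the age in days, the number of animals in a library, the kind of mutation in the bacteria or how replicates were obtained. The p-values therefore reflect the spread of these samples alone, and that spread may be technical.

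In a nucleosome, DNA is wrapped around a core of H2A, H2B, H3 and H4, and a linker histone (H1) binds the DNA where it enters and leaves. Canonical core histone genes are repeated in clusters, lack introns and are made for DNA replication, and their messages end in a stem-loop that the stem-loop binding protein, CDL-1 in worms, recognizes. H3.3 replaces H3 outside replication and comes from single genes with introns. Somatic cells of an adult worm no longer divide, so cell division in an adult is found in the germ line and in the embryos the animal carries. Oocytes are loaded with histones for the first embryonic divisions. HIS-24 is the best studied of the worm's linker histones.

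Libraries held 20.5 M to 22.7 M estimated counts, and 15309 to 16914 symbols were above 0. In purH replicate 1 the markers of adult soma summed to 7683 CPM and those of germ line and oocyte to 5040.2 CPM, the lowest of the 33 libraries for both lists. The lowest correlation between replicates of a diet, 0.821, was within the purH group. CPM is the count scaled to a common library size that was adjusted by TMM. All 16 adult soma markers and all 21 germ line and oocyte markers were above 0 in every library.

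Among the 30 listed genes, the 6 with the highest median levels were 4 linker and 2 H3.3 genes. The 50 symbols not analysed here and unstated poly(A) selection limit this order, since many core messages end in a stem-loop. Levels were compared between genes in the deposited TPM, which corrects for transcript length. The H1 gene hil-4 led with a median of 1047 TPM over the 33 libraries and a range of 607 to 1624. The H1 gene hil-5 followed with a median of 842 TPM, and the H3.3 genes his-74 and his-72 came next with medians of 762 and 378 TPM. The linker gene his-24 had a median of 270.2 TPM and ranged from 69.2 to 958. Below these stood hil-2 with a median of 124 TPM, the H4 gene his-37 with 92.1, the third H3.3 gene his-71 with 86.3, the H2A gene his-35 with 84.7 and hil-3 with 67.7. The H2A gene his-47 had a median of 47.9 TPM, the H2B gene his-41 of 43.8, the linker gene hil-7 of 32.3 and the H3 gene his-45 of 25.1. The remaining 16 genes had medians between 0.44 TPM (his-57, an H2A gene) and 16.2 TPM (his-29, an H2B gene).

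Several steps of this order were not separated by the spread over libraries. The linker gene hil-4 was above hil-5 in 32 of 33 libraries, and his-74 was above his-72 in all 33. In contrast, his-71 was above his-35 in 17 of 33, his-41 above hil-7 in 18, hil-1 above his-15 in 16 and hil-6 above hil-8 in 16, so neighbours in these pairs exchanged places from library to library. The H2A gene his-35 ranged from 67.4 to 95.5 TPM, and from 25.1 to 72.9 CPM. The linker gene hil-7 varied most among the 28 genes that were above 0 in every library, from 1.32 to 212 CPM, a 159.9-fold range. The other 2 genes were listed at 0 in some libraries, his-57 in 2 and his-73 in 5. Together the 30 genes held 0.192% to 0.497% of the counts of a library.

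**Figure D1:**
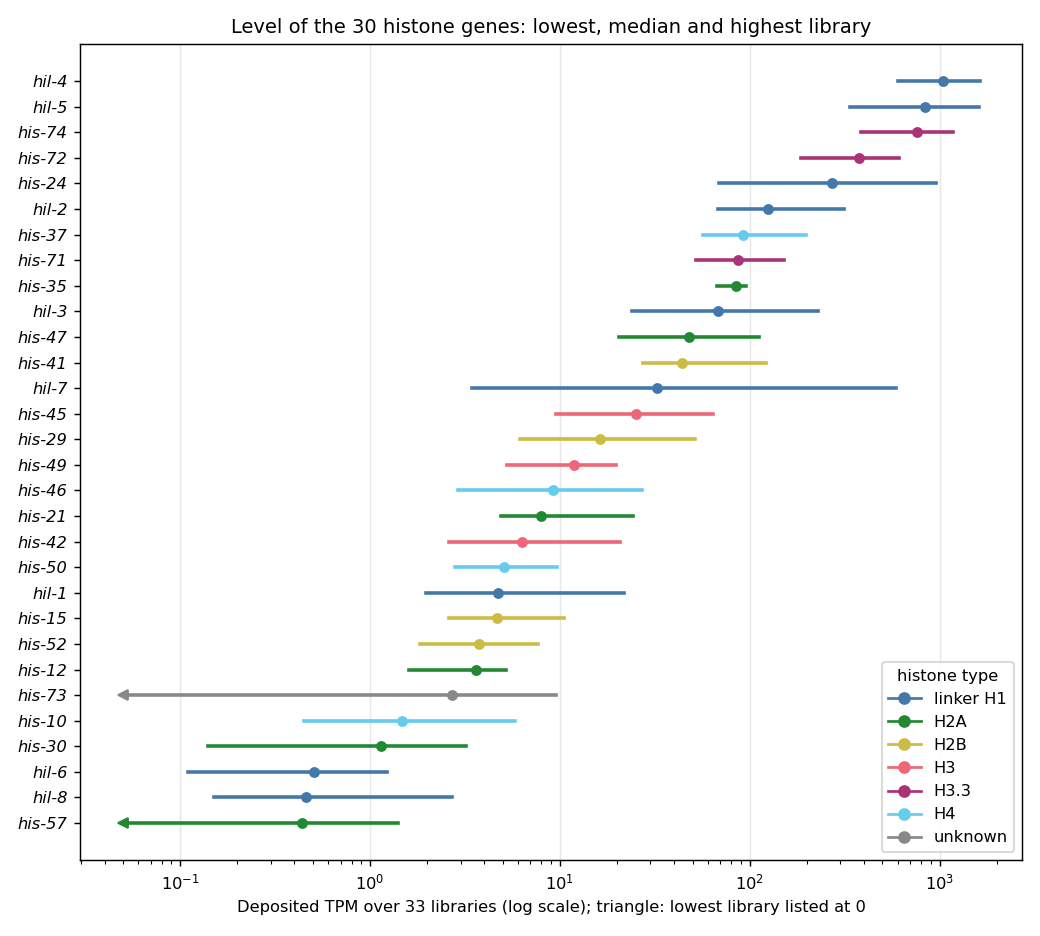
Deposited TPM of the 30 histone genes on a log axis, ordered by median and coloured by histone type. Each point is the median of 33 libraries and each line runs from the lowest to the highest library, with a triangle where the lowest library is listed at 0. The linker and H3.3 genes hil-4, hil-5, his-74 and his-72 lie highest, and the line of hil-7 is the longest of the genes above 0 in every library.

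Gene structure and position split the set. 14 of the 30 genes have 1 exon and 16 have several in the Ensembl annotation of WBcel235. Of the 20 core genes of known type, 13 have 1 exon, and the 7 with several are the H3.3 genes his-71, his-72 and his-74 together with his-35, his-37, his-41 and his-57. The linker and H3.3 genes stand alone: none has another histone gene within 10 kb. The intronless core genes lie in clusters, as do his-35, his-37, his-41 and his-57. On chromosome IV, his-47 (IV:11324056-11324439), his-46 (IV:11326018-11326329) and his-45 (IV:11326588-11326998) are neighbours, and his-29 (IV:8331044-8331412) lies in another group. On chromosome II, his-42 (II:13828287-13828697) lies beside his-10, his-12 and his-15. On chromosome V, his-35 (V:9544659-9545288), his-41 (V:9545536-9546264) and his-37 (V:9547105-9547607) are adjacent. Among the linker genes, his-24 (X:14490094-14491119) and hil-3 (X:8159169-8160084) are on the X chromosome, with his-71 (X:7981382-7982070), and hil-7 (IV:6646312-6646972) is on chromosome IV.

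Copies of a core histone gene are nearly identical in general, and the sequences were not compared here. For 15 of the 30 genes the deposited count was not a whole number in at least 80% of libraries, which can arise where reads are divided among loci or transcripts, and these included most intronless core genes and the H3.3 gene his-72. Stand-alone genes had such counts too, hil-2 in 57.6% of libraries and hil-5 in 54.5%. 7 genes had whole counts in all libraries, namely hil-1, hil-3, hil-4, hil-6, hil-7, hil-8 and his-37. The sources used here do not say how shared reads were assigned, and Ensembl gives the 80 loci 58 symbols, up to 4 loci under 1 symbol. Values of single core genes are therefore uncertain where copies could exchange reads, and sums over a type are given beside them.

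In animals fed torY, 7 of the 30 histone genes fell relative to BW25113 and none rose at an adjusted p under 0.05 (edgeR quasi-likelihood test, Benjamini-Hochberg over 14696 genes), where 5.26% of all genes tested fell, 9.66% rose and 14.9% changed in either direction. The 7 were the linker genes his-24, hil-3, hil-6 and hil-7, the H2B gene his-29, the H3 gene his-45 and the H4 gene his-46. Over all 30 genes the median log2 fold change was -0.75, against 0.01 over all genes tested. Leaving out 1 library changed the number called, which was 0 without BW25113 replicate 2 and 0 without torY replicate 3. In each case 10 of 30 were at an unadjusted p under 0.05, against 27.3% and 27.4% of all genes. Without BW25113 replicate 1 it was 2, his-46 lower and his-71 higher, where 5.12% of all genes were called. Without BW25113 replicate 3 it was 5, all lower, against 4.14%. Without torY replicate 1 it was 3, all lower, against 3.69%. Without torY replicate 2 it was 3, his-46 lower and his-42 and his-71 higher, against 14.4%. In whole animals, fewer cells of a type and less RNA per cell cannot be told apart.

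Linker genes had the 4 lowest log2 fold changes among the 7. His-24 stood at 898, 877 and 411 CPM in the 3 BW25113 libraries, 184, 57.1 and 71.03 CPM with torY and 104, 308 and 84.1 CPM with yccU. The groups do not overlap, and over the 24 libraries of the other 8 mutants the level ran from 55.3 to 832 (median 250.0) CPM. With torY the log2 fold change of his-24 was -2.81 ± 0.82 (SE; adjusted p = 0.029), and with yccU it was -2.14 ± 0.80 (SE; adjusted p = 0.0963). Without torY replicate 1 the value with torY was -3.51. The mean of his-24 was highest with BW25113, at 729 ± 275 CPM (SD, n = 3), and lowest with torY, at 104 ± 69.7 CPM. Between them lay crl (459 ± 255), iaaA (378 ± 335), ypdF (373 ± 399), ycdC (366 ± 119.4), yjgU (276 ± 62.1), yghZ (219 ± 170.4), purH (210.1 ± 136), ycgJ (170.0 ± 165) and yccU (165 ± 124), each in CPM, and neighbours in this order do not differ beyond their spread.

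The short linker-like gene hil-7, with a coding length of 201 bases, showed the widest change. It measured 158, 107 and 21.6 CPM with BW25113, 2.69, 1.89 and 1.40 CPM with torY and 1.60, 22.1 and 1.32 CPM with yccU. All torY libraries were far below all BW25113 libraries, while yccU replicate 2 reached the lowest BW25113 library. Its log2 fold change was -5.59 ± 1.67 (SE; adjusted p = 0.0319) with torY. Other diets were split within themselves: ypdF gave 212, 3.87 and 2.59 CPM and purH gave 77.95, 1.75 and 19.3 CPM. For yccU the log2 fold change was -3.52 ± 1.501 (SE; adjusted p = 0.138) and for yjgU, at 7.78, 14.4 and 4.44 CPM, it was -3.43 ± 1.49 (SE; adjusted p = 0.735), neither past the threshold.

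The X-linked gene hil-3 stood at 199, 206 and 102 CPM with BW25113 and 56.5, 21.4 and 37.1 CPM with torY. These groups do not overlap, and its log2 fold change was -2.14 ± 0.69 (SE; adjusted p = 0.0409). With yccU it stood at 40.6, 71.6 and 34.6 CPM, also below every BW25113 library, with a log2 fold change equal to -1.79 ± 0.69 (SE; adjusted p = 0.104). The rare gene hil-6 measured 1.17, 0.981 and 0.982 CPM with BW25113 and 0.345, 0.0773 and 0.175 CPM with torY, without overlap, and fell by 2.44 on the log2 scale (SE 0.84, adjusted p = 0.0491). Of the 4 linker genes that fell with torY, none was called in all 6 fits that left out 1 library of the comparison. His-24 kept its call in 2 of the 6, hil-7 in 1, and hil-3 and hil-6 in 0.

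The linker genes hil-4, hil-5 and hil-2 had smaller differences, which did not pass. Hil-4 stood at 1509.9, 2144 and 1565 CPM with BW25113 and 1515, 637 and 574 CPM with torY, where torY replicate 1 lay just above BW25113 replicate 1. Its log2 fold change was -0.94 ± 0.58 (SE; adjusted p = 0.236). Hil-5 stood at 1196, 1503 and 1488 CPM with BW25113 and at 1110.0, 466 and 463 CPM with torY, with a log2 fold change equal to -1.04 ± 0.59 (SE; adjusted p = 0.199), and all torY libraries were below all BW25113 libraries. Hil-2 stood at 190.4, 230.2 and 166 CPM with BW25113 and at 131, 46.3 and 62.4 CPM with torY, with no overlap, and had a log2 fold change equal to -1.29 ± 0.52 (SE; adjusted p = 0.0806). The last pair of linker genes had lower levels and values near or above 0: hil-1 had a log2 fold change equal to 0.05 ± 0.44 (SE; adjusted p = 0.941) and hil-8 of 0.37 ± 0.56 (SE; adjusted p = 0.632). Hil-2, hil-3, hil-4, hil-5, hil-6, hil-7 and his-24 had negative log2 fold changes in all 10 mutants, which all share the 3 BW25113 libraries.

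**Figure D2:**
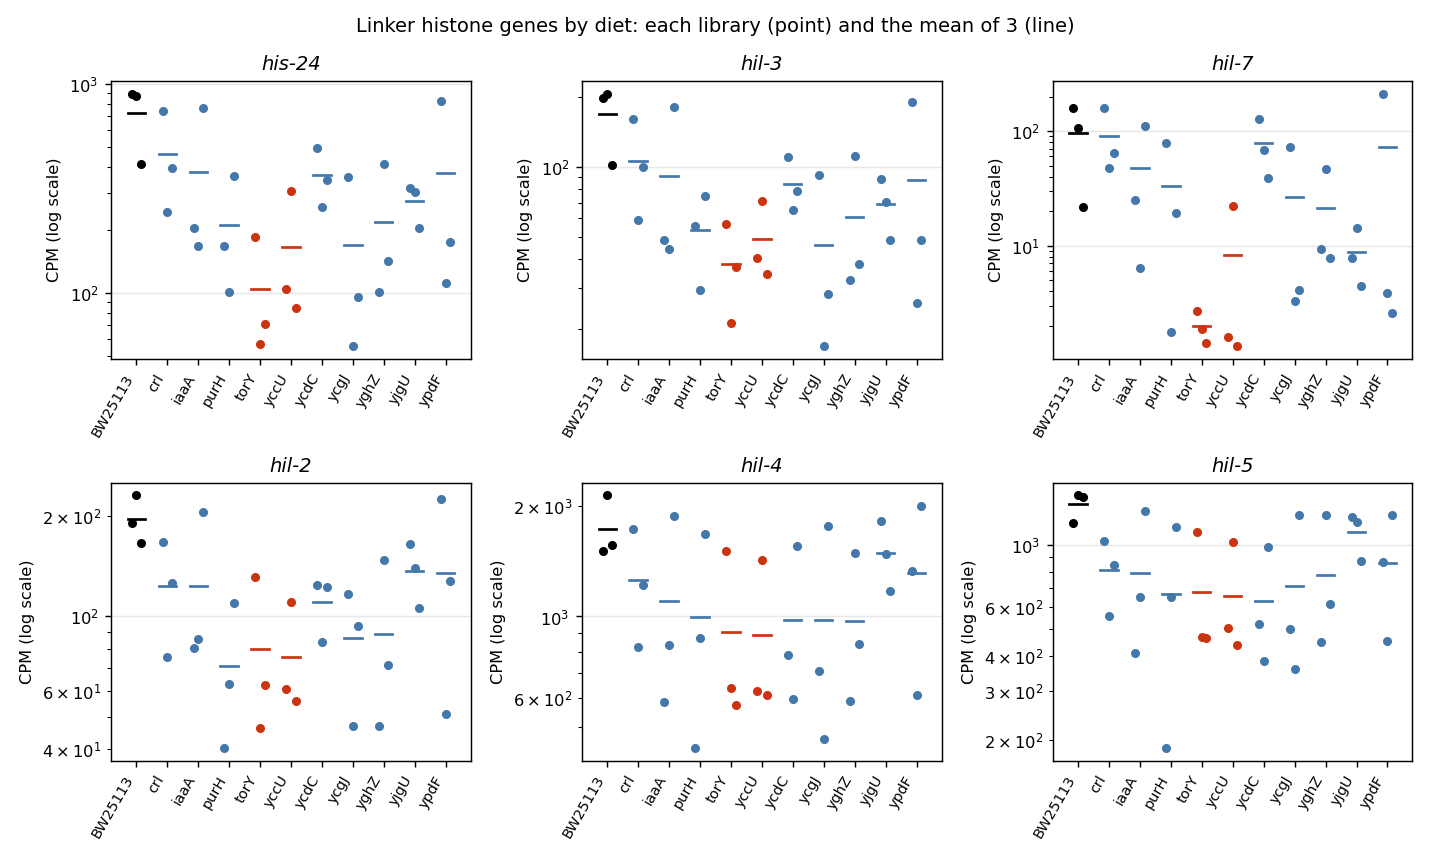
CPM of 6 linker histone genes on a log axis in each library, by diet. Points are libraries and lines the mean of 3, with BW25113 in black, torY and yccU in red and the other mutants in blue. For his-24, hil-3 and hil-7 the torY points lie below all BW25113 points, while for hil-4 torY replicate 1 lies among them.

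Within the linker group the make-up differed as well. These shares are of TPM summed over the 9 linker genes in the same library, so they do not depend on library scaling. His-24 held 20.2, 16.6 and 10.7 percent with BW25113 and 6.04, 4.55 and 5.74 percent with torY, without overlap. In yccU it held 7.60, 10.1 and 6.74 percent, with no library reaching BW25113, and over the other 8 mutants 2.89% to 20.7% (median 10.6%). Hil-7 held 8.63, 4.91 and 1.35 percent with BW25113 and 0.211, 0.355 and 0.261 percent with torY. Over the other 8 mutants hil-7 held 0.169% to 17.3% (median 2.36%). Hil-4 held more with torY, 47.01% ± 2.19 (SD, n = 3) against 36.8% ± 3.65. This was not particular to torY: hil-4 held 45.4% ± 1.49 with yccU and 31.6% to 52.5% (median 43.5%) over the other 8 mutants. These shares were not tested.

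The H3.3 genes had unlike signs with torY, and none passed the test. His-72, a broadly expressed H3.3 gene, stood at 662, 756 and 463 CPM with BW25113 and 391, 203 and 177 CPM with torY. His-74 stood at 789, 692 and 497 CPM with BW25113 and at 430.4, 292 and 230.0 CPM with torY. In both genes every torY library was below every BW25113 library. The log2 fold change was -1.29 ± 0.52 (SE; adjusted p = 0.08) for his-72 and -1.05 ± 0.50 (SE; adjusted p = 0.126) for his-74, and neither passed. The X-linked gene his-71 had the opposite sign, with 74.1, 41.3 and 37.1 CPM in BW25113 and 107, 69.05 and 86.2 CPM in torY. BW25113 replicate 1 lay above torY replicate 2, so the groups overlap, and the log2 fold change of his-71 was 0.78 ± 0.27 (SE; adjusted p = 0.0504), just outside the threshold. With yccU his-71 stood at 76.3, 47.4 and 75.6 CPM and had a log2 fold change equal to 0.39 ± 0.27 (SE; adjusted p = 0.346). The 24 libraries of the other mutants ran from 31.9 to 63.3 (median 45.5) CPM.

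As a share of H3.3 TPM in the same library, his-71 held 5.68, 3.35 and 4.41 percent with BW25113 and 13.4, 13.9 and 19.9 percent with torY. With yccU it held 17.5, 5.36 and 16.6 percent, and yccU replicate 2 alone of these 3 lay at the BW25113 level. The other 8 mutants lay between 3.62% and 10.9%, with a median of 6.88%, so no library of theirs reached a torY library. His-69 and his-70, related H3.3 genes, are not analysed here.

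The 3 core genes that fell with torY all lie on chromosome IV. The H3 gene his-45 stood at 24.7, 28.3 and 9.97 CPM with BW25113 and 8.84, 4.68 and 3.68 CPM with torY. Its neighbour his-46, an H4 gene, stood at 3.91, 5.09 and 2.38 CPM with BW25113 and at 1.31, 0.851 and 0.964 CPM with torY. Both fell without overlap between the groups, and the log2 fold change was -1.88 ± 0.54 (SE; adjusted p = 0.0277) for his-45 and -1.87 ± 0.50 (SE; adjusted p = 0.0226) for his-46. The next gene of that cluster, the H2A gene his-47, stood at 37.7, 54.6 and 16.4 CPM with BW25113 and at 18.0, 9.36 and 8.02 CPM with torY. BW25113 replicate 3 lay below torY replicate 1, and the log2 fold change of his-47 was -1.62 ± 0.56 (SE; adjusted p = 0.0504), just outside the threshold. His-46 kept its call in 4 of the 6 fits without 1 library, and his-45 in 2. The H2B gene his-29, in another cluster of chromosome IV, stood at 13.2, 16.8 and 6.92 CPM with BW25113 and at 3.45, 2.67 and 2.32 CPM with torY. Those groups do not overlap, its log2 fold change was -2.13 ± 0.65 (SE; adjusted p = 0.0343), and it kept its call in 1 of the 6.

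The H3 gene his-42 on chromosome II had the opposite sign. It stood at 2.74, 3.55 and 1.09 CPM with BW25113, 7.25, 4.14 and 7.49 CPM with torY and 8.30, 3.50 and 5.94 CPM with yccU. Every torY library was above every BW25113 library, and the 24 libraries of the other mutants ran from 1.06 to 3.92 (median 2.15) CPM. The log2 fold change was 1.36 ± 0.49 (SE; adjusted p = 0.0557) with torY and 1.27 ± 0.49 (SE; adjusted p = 0.104) with yccU, neither past the threshold. Within H3, his-42 held 8.10, 8.94 and 6.57 percent of TPM with BW25113 and 31.3, 37.01 and 51.9 percent with torY. His-45 held 68.2% ± 7.01 (SD, n = 3) with BW25113 and 35.2% ± 8.59 with torY. With yccU his-42 held 47.1, 14.1 and 46.5 percent. Over the other 8 mutants his-42 held 5.41% to 38.4% (median 12.95%) and his-45 held 40.7% to 74.3%. The highest his-42 share there, in ycgJ replicate 2, was above those of torY replicates 1 and 2. The lowest his-45 share there, in the same library, was below that of torY replicate 2. Shares within H3 were not tested. His-49, the third H3 gene, had a log2 fold change equal to -0.64 ± 0.44 (SE; adjusted p = 0.282) with torY. How reads were assigned between his-42 and his-45, which both encode H3, was not tested.

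**Figure D3:**
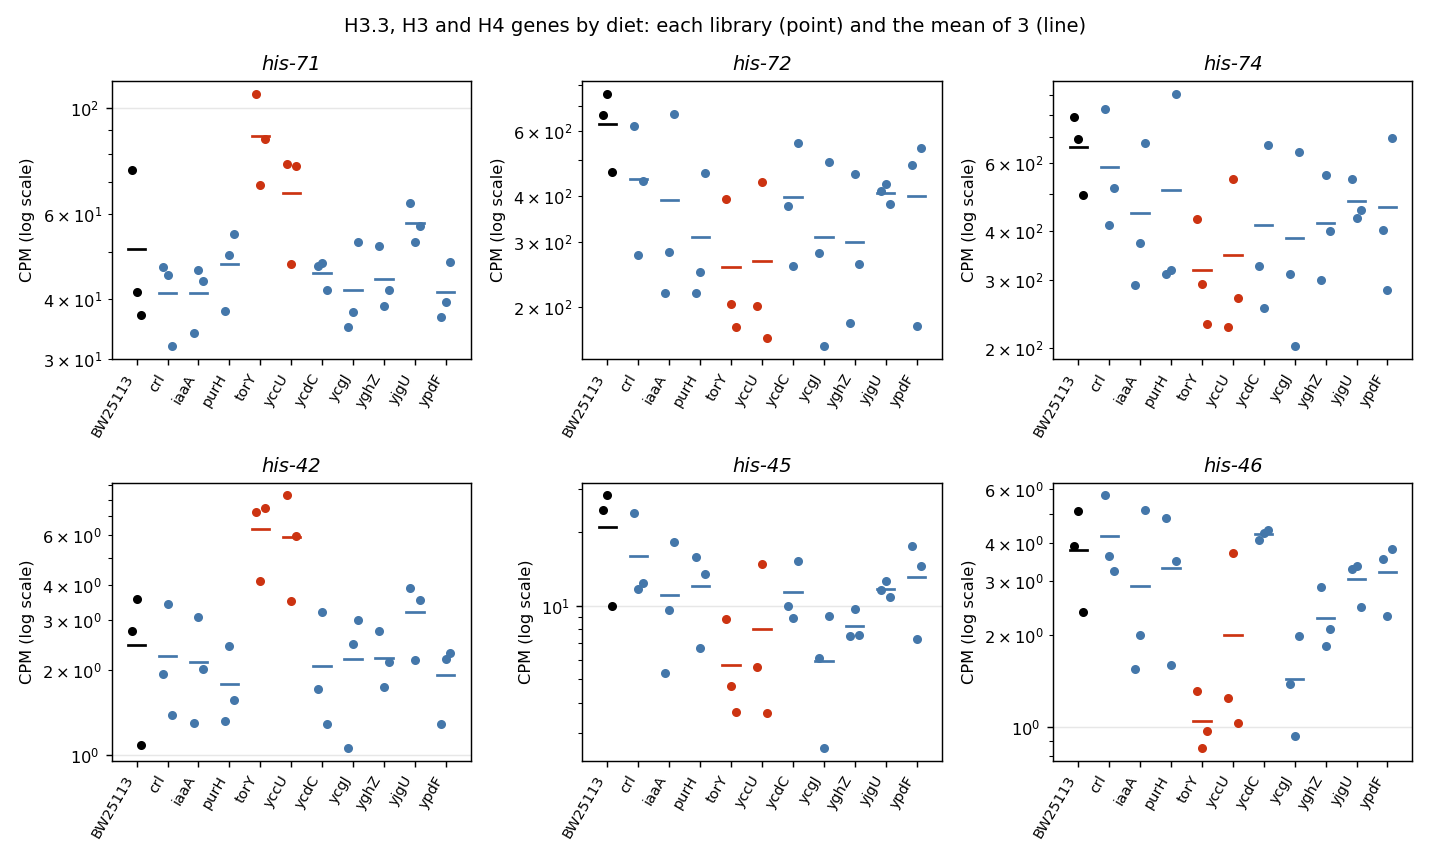
CPM on a log axis in each library for the H3.3 genes his-71, his-72 and his-74, the H3 genes his-42 and his-45 and the H4 gene his-46, by diet. Points are libraries and lines the mean of 3, with BW25113 in black, torY and yccU in red and the other mutants in blue. The torY points of his-45 and his-46 lie below, and those of his-42 above, all BW25113 points.

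The 3 adjacent core genes with introns on chromosome V had values above 0 with torY, and none passed; that of his-35 turned negative without BW25113 replicate 3 or torY replicate 1. His-37, an H4 gene with whole counts in every library, stood at 33.3, 38.4 and 32.4 CPM with BW25113, 63.1, 44.1 and 49.2 CPM with torY and 66.5, 52.1 and 48.1 CPM with yccU. All torY and yccU libraries were above all BW25113 libraries. Its log2 fold change was 0.58 ± 0.28 (SE; adjusted p = 0.136) with torY and 0.68 ± 0.28 (SE; adjusted p = 0.134) with yccU. The H2B gene his-41 had a log2 fold change equal to 0.61 ± 0.29 (SE; adjusted p = 0.13) with torY, and the H2A gene his-35 of 0.07 ± 0.30 (SE; adjusted p = 0.871). As a share of H4 TPM in the same library, his-37 held 79.8% ± 3.35 (SD, n = 3) with BW25113 and 90.9% ± 2.102 with torY, and his-46 held 13.0% ± 3.32 and 2.78% ± 0.0485. Signs of small changes depend on scaling: library totals in place of TMM raised the median of the 11449 genes with a mean over 1 CPM by 0.22 (log2) with torY.

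The other core genes among the most abundant of their type did not pass. With torY the log2 fold change was 0.76 ± 0.46 (SE; adjusted p = 0.231) for his-21 (H2A), 0.74 ± 0.42 (SE; adjusted p = 0.2) for his-15 (H2B) and -0.09 ± 0.45 (SE; adjusted p = 0.895) for his-50 (H4). The genes his-10, his-12, his-30, his-52, his-57 and his-73 had median levels of 0.44 to 3.77 TPM, and their log2 fold changes with torY lay between -2.097 (his-73) and 1.33 (his-10), with none called.

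Summed over a type, reads shared between its listed copies are counted together. The 9 linker genes summed to 4159, 5074 and 3758 CPM with BW25113 and 3004, 1238 and 1215 CPM with torY. H3.3 summed to 1525, 1489 and 998 CPM with BW25113 and 929, 564 and 493 CPM with torY. Neither sum overlaps between the groups. In CPM, linker sums were also below every BW25113 library in all libraries of purH, yccU, ycdC, ycgJ, yghZ, yjgU and ypdF. In the deposited TPM, ypdF replicate 1 (4629) and yghZ replicate 2 (3874) had linker sums above that of BW25113 replicate 1 (3520). For H3.3, sums below every BW25113 library were found with torY alone in CPM. In TPM they were found with torY, yccU, ycgJ and yjgU. Over the 24 libraries of the other 8 mutants the linker sum ran from 952 to 4479 (median 2293) CPM. The H3.3 sum there ran from 396 to 1490 (median 819) CPM. H3 summed to 33.8, 39.7 and 16.6 CPM with BW25113 and 23.2, 11.2 and 14.4 CPM with torY, and H2A to 107, 112.6 and 59.5 CPM with BW25113 and 104, 55.02 and 61.8 CPM with torY, and in both the groups overlap. H2B summed to 39.1 ± 8.92 CPM (SD, n = 3) with BW25113 and 42.3 ± 6.02 with torY, a difference within the spread. H4 was the one core type whose torY libraries, at 68.2, 46.2 and 52.5 CPM, were all above the BW25113 libraries, at 39.2, 45.9 and 36.7 CPM. The gap was narrow, from 45.9 to 46.2 CPM. All H4 sums of crl, yccU and yjgU in CPM were above the BW25113 libraries too. In TPM this held for every mutant but ypdF, whose replicate 1 summed to 82.7, against 85.8 in BW25113 replicate 3. Over the 24 libraries of the other 8 mutants the H4 sum ran from 24.8 to 69.6 (median 48.3) CPM. With yccU the linker sum was 1341, 2973 and 1229 CPM and the H3.3 sum 504, 1029 and 509 CPM, where replicate 2 stood apart at the high end. No sum was tested.

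**Figure D4:**
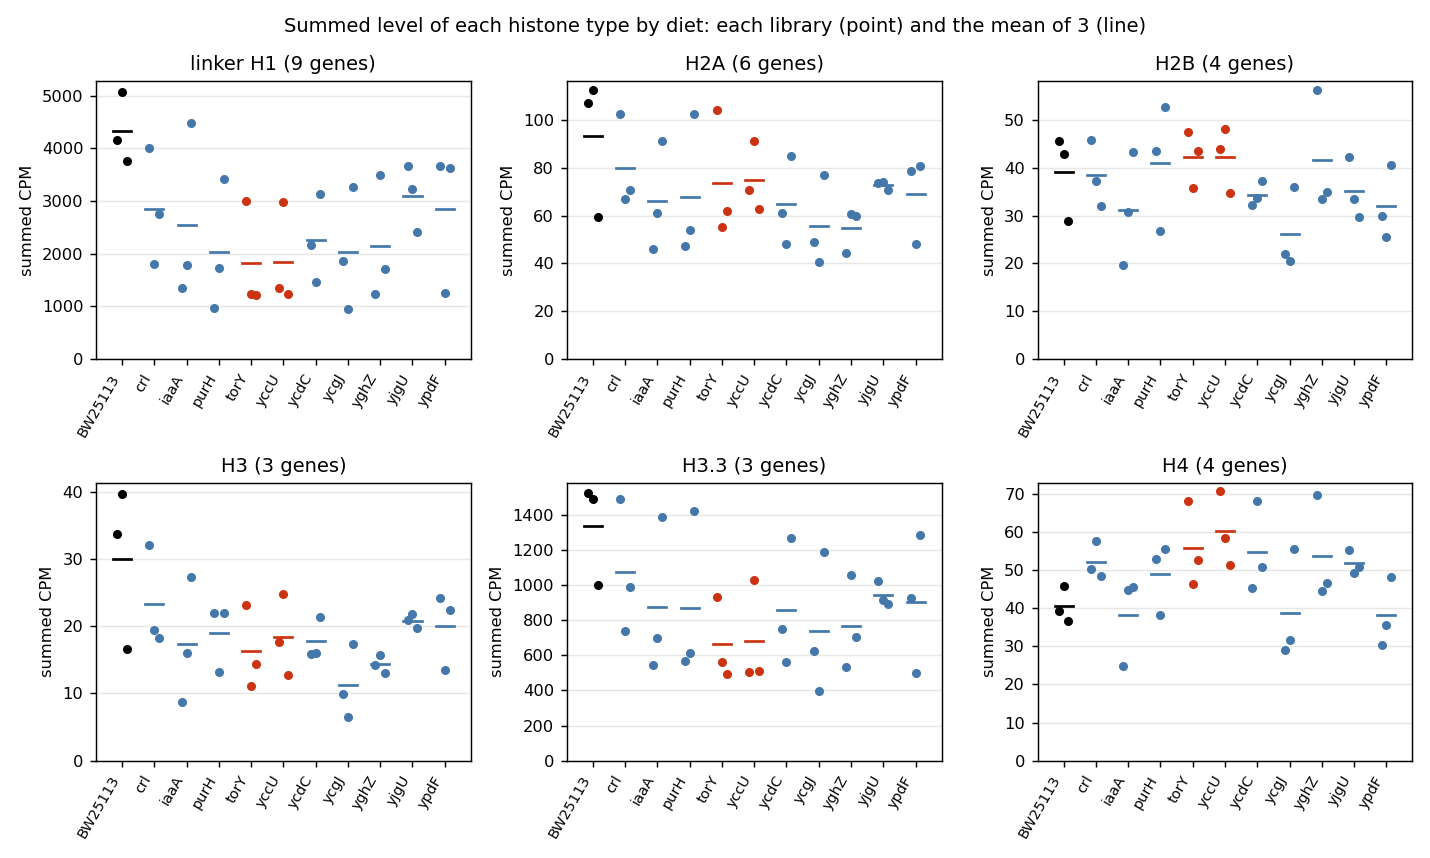
Summed CPM of each histone type in each library, by diet, on linear axes from 0. Points are libraries and lines the mean of 3, with BW25113 in black, torY and yccU in red and the other mutants in blue. The linker and H3.3 sums of the torY libraries lie below those of the BW25113 libraries, and the H4 sums lie above. Linker sums lie below as well for purH, yccU, ycdC, ycgJ, yghZ, yjgU and ypdF, and H4 sums above for crl, yccU and yjgU.

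No histone gene passed in any of the other 9 mutants by the edgeR test. With yccU, 2.62% of all genes were called (0.122% lower and 2.5% higher), and 0 of 30 histone genes were. At an unadjusted p under 0.05 stood 10 of 30 histone genes and 26.9% of all genes, and the histone count was 1 without yccU replicate 1 and 3 without yccU replicate 3. DESeq2 called 1, his-24, which was lower, and 12.5% of all genes. Without yccU replicate 2, 9 of 30 were called, 8 lower and 1 higher (his-42), where 14.8% of all genes were called, 4.01% lower and 10.8% higher. In crl, iaaA, purH, ycdC, ycgJ, yghZ, yjgU and ypdF 0% of all genes were called. At an unadjusted p under 0.05 were 11 histone genes with ycgJ (4 to 15 when 1 library was left out), against 4.74% of all genes. The same count was 7 with yghZ (1 to 10), against 6.71%, and 5 with purH (2 to 10), against 7.17%. It was 2 with ycdC (0 to 5), against 4.64%, and 2 with yjgU (0 to 7), against 6.49%. It was 0 with crl (0 to 0), iaaA (0 to 11) and ypdF (0 to 4), against 1.02%, 1.12% and 1.32%. DESeq2 called 0 histone genes in each of the 8.

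Fitted changes leaned to lower values in the mutants. The median log2 fold change over the 30 genes was -0.30 for crl (-0.65 to -0.12 when 1 library was left out), -0.32 for yjgU (-0.51 to -0.09), -0.41 for purH (-0.75 to -0.22) and -0.53 for ypdF (-0.71 to -0.36). It was -0.64 for iaaA (-1.11 to -0.34), -0.67 for yccU (-1.17 to -0.51) and -0.67 for ycdC (-0.95 to -0.43). For yghZ it was -0.79 (-0.91 to -0.63) and for ycgJ -0.96 (-1.35 to -0.79), and with torY it ran over -1.13 to -0.55. No order of the mutants was tested. Over all genes tested the medians ran from -0.08 to 0.18. All 10 comparisons use the same 3 BW25113 libraries, so they do not repeat each other independently. The genes with a negative value in all 10 numbered 17, and his-10, his-37 and his-41 were positive in at least 8. The share of all genes negative in all 10 is not given here, so the 17 cannot be set against it. Averaged over the 10 mutants against BW25113, 0 of 30 genes passed by edgeR, 12 were at an unadjusted p under 0.05 (3 without BW25113 replicate 2) against 9% of all genes, and 0% of all genes were called. The lowest p there belonged to his-24, with a log2 fold change equal to -1.55 ± 0.49 (SE; adjusted p = 0.539).

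**Figure D5:**
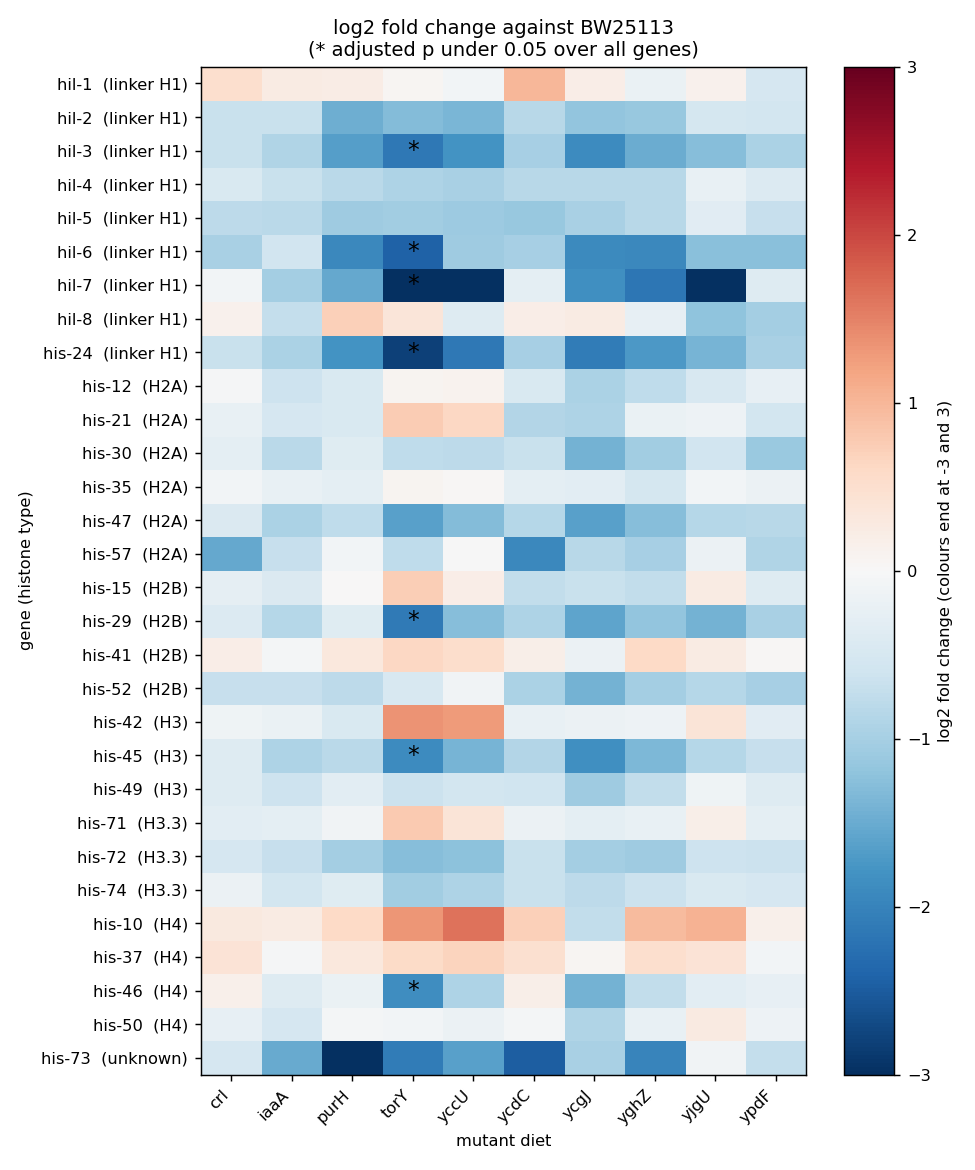
Log2 fold change against BW25113 of the 30 histone genes (rows, with type) in the 10 mutant diets (columns), with blue below 0 and red above and colours ending at -3 and 3. Asterisks mark an adjusted p under 0.05 over all genes, and all 7 stand in the torY column.

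Library by library, 12 genes had all 3 torY libraries below all 3 BW25113 libraries and 5 had them above, where 21.7% and 25.5% of all genes did. With ycgJ, 9 genes were below and 0 above, against 3.48% and 5.74% of all genes. For yghZ the numbers were 9 below and 1 above, against 5.82% and 9.05%. For yjgU they were 8 and 1, against 10.2% and 15.1%. In yccU 7 were below and 3 above, against 15.2% and 19.2%. In purH 7 were below and 0 above, against 5.59% and 5.93%. The ycdC diet had 6 below and 1 above, against 2.03% and 5.93%. Fewest came from crl, with 3 below and 1 above, against 2.82% and 5.07%, from ypdF, with 2 and 0, against 1.33% and 1.63%, and from iaaA, with 1 and 0, against 2.25% and 2.47%. Hil-6 was below in 8 of the 10 mutants and hil-2 in 7, and his-37 was above in 6, all against the same BW25113 libraries. In the ycgJ diet, his-45 stood at 6.08, 2.61 and 9.09 CPM and his-24 at 359, 55.3 and 95.6 CPM. Summed over the 30 genes, the lowest library was ycgJ replicate 2 in CPM (1448) and torY replicate 3 in TPM (2525).

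An F test across the 11 diets called 0 of 30 histone genes and 3.16% of all genes (edgeR). At an unadjusted p under 0.05 were 8 histone genes. The share of all genes at that p was not taken in this test, so the 8 cannot be set against it. His-42 came nearest, with an adjusted p of 0.0555, then his-71 with 0.0731 and his-46 with 0.107.

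With torY, some genes that supply and deposit histones fell too, as did genes of DNA replication and of histone modification. Of 15 supply and deposition genes, 6 fell and 0 rose, with a median log2 fold change of -0.98. The lowest p values belonged to the FACT chaperone subunits hmg-4, at -1.66 ± 0.40 (SE; adjusted p = 0.0153), and spt-16, at -1.34 ± 0.39 (SE; adjusted p = 0.0277), and to the ATRX relative xnp-1, at -1.02 ± 0.30 (SE; adjusted p = 0.0292). The 3 histone variants named outside the his and hil series were htz-1, encoding H2A.Z, and the centromeric H3 genes hcp-3 and cpar-1. Of these 0 passed by edgeR, and the median was -1.03. At an unadjusted p under 0.05 stood 1, where 36.5% of all genes did. Of 31 DNA replication genes, 7 fell and 0 rose, with a median of -1.15. Among them were the replicative helicase subunit mcm-6, at -1.30 ± 0.33 (SE; adjusted p = 0.0179), the licensing factor cdt-1, at -1.71 ± 0.49 (SE; adjusted p = 0.0269), and the origin recognition subunit orc-1, at -1.35 ± 0.42 (SE; adjusted p = 0.0346). Of 25 histone modifying enzymes tested (mes-6, listed at 0 in 32 libraries, was not), 6 fell and 0 rose, with a median of -1.02, led by the H3K27 demethylase utx-1, at -1.84 ± 0.43 (SE; adjusted p = 0.0136), the LSD1-family gene lsd-1, at -1.87 ± 0.54 (SE; adjusted p = 0.0277), and the H3K36 methyltransferase mes-4, at -1.66 ± 0.48 (SE; adjusted p = 0.0277). Over all genes tested the median was 0.01 and 5.26% fell. Without BW25113 replicate 2, no gene at all was called with torY, so these counts were 0 as well, with 4017 of all genes at an unadjusted p under 0.05.

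In yccU the same lists gave 1 call, utx-1, with a log2 fold change equal to -1.59 ± 0.42 (SE; adjusted p = 0.0428). The median was -0.75 over the replication genes and -0.66 over the supply and deposition genes, with 7 of 31 and 6 of 15 at an unadjusted p under 0.05, where 26.9% of all genes were. In the mean of the 10 mutants none of the 4 lists had a call.

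Markers of cell types and stages moved in the same libraries. The calls below are with torY, where 5.26% of all genes tested fell and 9.66% rose. The 21 germ line and oocyte markers summed to 27040.1 to 34264 CPM with BW25113 and 10731 to 18213 CPM with torY, and 3 fell and 0 rose. The embryo markers summed to 281 to 318 CPM and 107 to 138 CPM, and 7 of 16 tested fell and 0 rose. Of the 17 embryo markers 14 were above 0 in every library, and end-1, tbx-37 and tbx-38 were each listed at 0 in 1 torY library and in no BW25113 library. The 19 sperm markers in the files summed to 598 to 1052 CPM and 3877 to 6358 CPM, and 4 rose and 0 fell. Of these, peel-1, spe-38 and spe-42 were listed at 0 in some BW25113 libraries and in no torY library. The 31 larval and molting markers summed to 298 to 873 CPM and 1375 to 4346 CPM, and 16 rose and 0 fell. The 16 adult soma markers summed to 84359 to 112616 CPM and 35809 to 70022 CPM, and 0 passed by edgeR. At an unadjusted p under 0.05 were 5 of the 16, against 36.5% of all genes. Germ line and oocyte sums were below every BW25113 library in all libraries of purH, yccU, ycgJ, yghZ and yjgU too. So were embryo sums of purH, yccU, yghZ and yjgU and adult soma sums of yccU, ycgJ, yghZ and yjgU. Sperm sums of yccU and yjgU were all above the BW25113 libraries as well. For larval sums this held with torY alone. With yccU, replicate 2 lay apart in these sums as it did in the histone genes: its larval sum was 511 CPM, against 2809.9 and 2614 CPM in the other pair, and its germ line and oocyte sum 22435 CPM, against 9393 and 12348 CPM. The part of these markers in the histone values was not tested.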

How the data were processed

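The authors deposited, for each of the 33 libraries, expected counts (estimated counts of reads) and TPM per gene symbol, per the file headers. The submitters' processing notes name the build WBcel235 and the tools Bowtie2, HISAT and StringTie without their roles. The sources used here do not give the counting tool, annotation release, strandedness or poly(A) selection. Between 7.78% and 10.0% of the expected counts of a library were not whole, and all were rounded.

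Genes were filtered with filterByExpr (14696 kept; the 4115 left out held 0.0197% of counts; all 30 histone genes were kept), scaled by TMM (factors 0.661 to 1.90) and fitted with edgeR 4.0.16 in R 4.3.3 by the quasi-likelihood test, with diet as the factor over all 33 libraries (22 residual degrees of freedom, common dispersion 0.198). The SE was obtained from F as |log2 fold change|/√F. Genes with p under 0.05 after Benjamini-Hochberg adjustment over the 14696 are called. DESeq2 1.42.0, RLE scaling, no filter, a replicate block, the 6 libraries of a comparison alone and fits without 1 library were alternatives. The script was tested on simulated data. The TPM deposited by the authors served for levels and shares, with no test.

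Same-numbered libraries of a mutant and BW25113 were compared by the correlation of their deviations from diet means. Only for yghZ were all 3 values over 0.1, at 0.311 to 0.389. Single values of other mutants ran from -0.442 (ypdF replicate 2) to 0.379 (purH replicate 1). These values cannot show whether samples were paired. The blocked fit also called 0 histone genes with yghZ. The histone genes, gene lists and tests were chosen with earlier results of these data known. Named with values were all linker genes, the H3.3 genes, every called gene, the 3 most abundant core genes of each type, and per list at most 3 called genes by lowest p. Histone types follow general knowledge of the symbols together with coding length, because product names and protein sequences were not used here. Positions are RefSeq loci of WBcel235, which had the same coordinates in Ensembl release 115 for all 80 loci.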

Additional observations from a re-analysis of the deposited data

How the results depend on the processing

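With torY the count of histone genes called, 7, was 10 by DESeq2 and 10 with the replicate number as a block, 8 lower and 2 higher in both (his-42 and his-71), 7 with RLE scaling (6 lower, and his-71 higher), 7 with no filter on low counts, 11 from the 6 libraries alone, and 0 to 5 without 1 library. The 7 genes were all among those called by DESeq2, by the block and from the 6 libraries alone; 6 of them were called with RLE and 6 with no filter. Of all genes, 23.2% were called by DESeq2, 18.2% with the block, 15.2% with RLE, 9.16% with no filter and 28.9% from the 6 libraries alone. Over every alternative run the adjusted p of his-46 ranged from 0.00521 to 0.0957, that of his-24 from 0.0016 to 0.111 and that of hil-7 from 0.000158 to 0.112. Of the 43 log2 fold changes followed, those of 6 uncalled genes with torY changed sign: without 1 library hil-1 ranged from -0.29 to 0.27, hil-8 from -0.03 to 1.02, his-12 from -0.38 to 0.50, his-35 from -0.23 to 0.26, his-50 from -0.57 to 0.29 and his-52 from -0.84 to 0.09, and from the 6 libraries alone his-50 was at 0.02. Over all genes torY gave 2193 calls, 3404 by DESeq2, 4246 from the 6 libraries alone, 0 without BW25113 replicate 2 and 153 without torY replicate 3. With yccU, 0 histone genes became 1 by DESeq2 (12.5% of all genes), 4 from the 6 libraries alone (hil-2, hil-3, hil-7 and his-24; 13.6% of all genes) and 0 to 9 without 1 library. With yjgU, 0 became 3 from the 6 libraries alone (hil-3, hil-7 and his-24, all lower), where 3.56% of all genes were called, 0.49% lower and 3.07% higher. In the F test the replicate block gave 1 call, his-42, in place of 0. Whether same-numbered samples were paired is not known, and with torY 1 of 3 libraries correlated best with their own number. The block changed no other count of called histone genes. Over all genes it gave 2670 calls with torY, 1169 with yccU in place of 385, and 716 in the F test in place of 465. Of the type sums with torY and yccU, 4 moved on raw library totals: relative to BW25113 (log2 of means) they became -0.03 for H2A with yccU, 0.37 for H2B with torY, 0.40 for H2B with yccU and 0.86 for H4 with yccU; that scaling raised the median of the 11449 genes with a mean over 1 CPM by 0.11 to 0.54 across mutants. The cause of these differences was not tested. Rare genes limit precision: hil-6, hil-8, his-10, his-30, his-57 and his-73 had medians under 3 TPM.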
